A study of Mus musculus with 6 samples.

Results

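The 7 genes described here encode the machinery by which major histocompatibility complex (MHC) class II molecules present peptides, and were taken by gene name (H2-Aa, H2-Ab1, H2-Eb1, H2-DMa, H2-DMb1, Cd74 and Ciita) from a table of 28752 genes. All 7 were listed, all 7 passed the filter on low counts, and 18348 genes passed it in all. RNA sequencing compared mouse intestinal crypt stem cells that carried the vector (n = 3, genotype WT) with cells overexpressing circEZH2_005, a circular RNA made from Ezh2, from an adenovirus (n = 3). Every sample was labelled as exposed to hypoxia/reoxygenation (H/R), with 4 h of hypoxia at 2% O2, which followed 72 h of infection, so that samples kept at normal oxygen do not enter the comparison. The study's methods describe Lgr5-positive stem cells sorted from Lgr5-GFP mice and then grown into crypt-villus organoids, which hold differentiated epithelium beside stem cells. They do not say that these RNA libraries came from such cultures. While the methods name male C57BL/6 mice for the study, they do not give the age or background of the Lgr5-GFP mice. Nothing in the labels says whether replicates came from separate animals or cultures, so p-values measure the spread between these samples, which may be technical. The libraries were selected with oligo(dT), and the level of the circular RNA was not analysed here.

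MHC class II molecules are pairs of an alpha and a beta chain that show fragments of endocytosed proteins to CD4-positive T cells. The invariant chain, encoded by Cd74, escorts the newly made pairs to endosomes, where proteases reduce it to a short peptide that the H2-DM pair then exchanges for antigenic peptides. CIITA is the coactivator on which transcription of these genes depends. B cells, dendritic cells and macrophages make class II constitutively, while epithelial cells acquire it after interferon-gamma, which induces Ciita with the help of IRF1. Lgr5-positive stem cells of the mouse small intestine are also known to carry class II molecules.

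The samples held between 71506487 and 79919893 counts, and 3 counts in a sample, the limit that a count of 0 allows, corresponded to between 0.0377 and 0.0419 CPM (counts as a share of the library, scaled with edgeR's TMM factors). This floor covers counting error only, and all 7 genes lay far above it in every sample. The epithelial markers Epcam, Cdh1, Krt8, Krt18, Vil1 and Cdx2 were present at 126 CPM or more in all 6 samples, and Lgr5 at between 7.70 and 18.3 CPM. Vector sample 2 stood apart from the other vector samples in most of the results below.

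All 7 class II genes were higher with circEZH2_005 than with vector, by 2.06- to 2.89-fold, and 6 of them passed an adjusted p-value of 0.05 (edgeR's quasi-likelihood test, Benjamini-Hochberg over all genes tested), beside 3.67% of all genes tested that passed in either direction and 2.69% that were called higher. Ciita was the gene that did not pass. With a fold change over 2 and an unadjusted p-value under 0.05, 7 of 7 were higher, beside 6.22% of all genes. An unadjusted edgeR p-value under 0.05 alone, in either direction, was reached by 4346 of the 18348 genes tested. That share is the background for such counts in the lists below. In 7 of 7 genes every circEZH2_005 sample lay above every vector sample, as in 16.4% of all genes tested. The two-sided exact permutation test gave p = 0.1 for each of them, the smallest p that 3 samples against 3 allow. Fold changes are given below as log2 differences of circEZH2_005 over vector, and their median was 1.27 over the 7 genes and 2.2e-05 over all genes tested. Since these are bulk samples, a change in the number of cells of a type and a change in RNA per cell cannot be told apart in any of these values.

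The calls depended on which samples entered the fit. Each fit with 1 sample left out also has fewer samples, and the part of this in the lost calls was not tested. Without vector sample 1, vector sample 3, circEZH2_005 sample 2 or circEZH2_005 sample 3, 0 of 7 genes passed the adjustment in edgeR, while 7 of 7 kept an unadjusted p-value under 0.05 in each of these fits. Of all genes tested, 3207 of 19125, 3252 of 19086, 3245 of 19098 and 4105 of 19146 were under that unadjusted threshold, in the same order of fits. Without vector sample 2 all 7 class II genes passed the adjustment, and without circEZH2_005 sample 1 the number was 6. The calls over all genes moved with them, from 674 to 28, 33, 68 and 169 in the first 4 of these fits and to 1432 without vector sample 2. The log2 fold changes stayed positive in each fit.

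**Figure D1:**
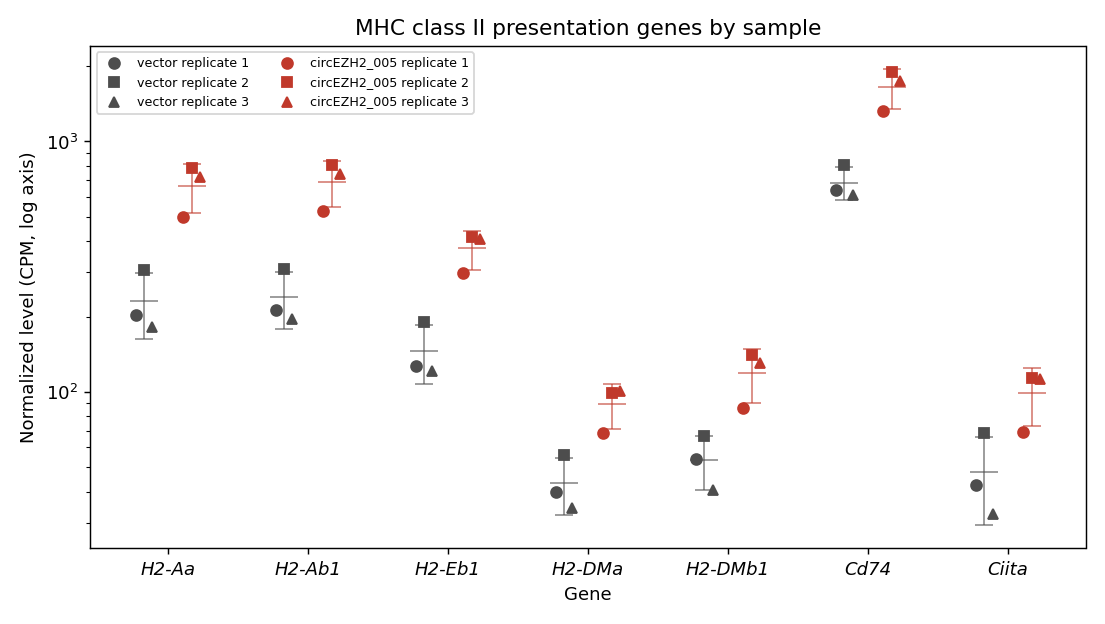
Normalized level (CPM, log axis) of the 7 class II genes in each sample, with vector samples in grey and circEZH2_005 samples in red. Points are samples and bars are the mean ± SD of 3 samples. All circEZH2_005 points lie above all vector points in each gene, most narrowly in Ciita, where vector sample 2 reached 68.3 CPM and circEZH2_005 sample 1 had 69.3 CPM.

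The classical class II chains came first among the members in fold change. H2-Aa (ENSMUSG00000036594, chromosome 17, 34282744 to 34287823, minus strand, GRCm38) encodes the alpha chain of the A molecule. In vector samples 1 to 3 the gene had 14591, 22981 and 14235 counts, and in the circEZH2_005 samples, in the same order, 39491, 58168 and 51516. Vector sample 2 was the highest control, yet the lowest circEZH2_005 sample had more counts than it. Normalized, H2-Aa rose from 230 ± 67.6 to 666 ± 150 CPM (SD, n = 3 each), which was a log2 difference of 1.53 ± 0.24 (SE, edgeR adjusted p = 0.0248).

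H2-Ab1 (ENSMUSG00000073421, chromosome 17, 34257689 to 34269419, plus strand) encodes the beta chain that pairs with H2-Aa. Its counts were 15440, 23139 and 15298 with vector and 41886, 59655 and 53338 with circEZH2_005. It rose from 239 ± 61.5 to 691 ± 145 CPM (SD, n = 3 each), with a log2 difference of 1.53 ± 0.22 (SE, edgeR adjusted p = 0.0214). The samples ran in the same order as for H2-Aa within circEZH2_005, with sample 2 highest and sample 1 lowest. Per length, the 2 chains kept a nearly fixed proportion, since the FPKM of H2-Aa divided by that of H2-Ab1 lay between 0.629 and 0.672 in the 6 samples.

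H2-Eb1 (ENSMUSG00000060586, chromosome 17, 34305867 to 34316674, plus strand) encodes the beta chain of the E molecule. Counts were 9220, 14242 and 9489 with vector and 23690, 30958 and 29278 with circEZH2_005, and the groups did not overlap. The rise from 146 ± 38.4 to 374 ± 66.1 CPM (SD, n = 3 each) came to a log2 difference of 1.35 ± 0.21 (SE, edgeR adjusted p = 0.0239). It overlaps the antisense gene Gm20513, and since no source says that strand was used in counting, reads of the pair cannot be told apart. Its partner H2-Ea, which the GENCODE M21 annotation lists as a polymorphic pseudogene and which is defective in C57BL/6 and several other strains, had 0, 27 and 17 counts with vector and 0, 0 and 11 with circEZH2_005. The E beta chain was thus read at 9220 or more counts in every library, and its alpha chain at 27 or fewer.

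The promoters of class II genes carry short conserved boxes, X (bound by the RFX complex), X2 (bound by CREB) and Y (bound by NF-Y), on which CIITA docks. The RefSeq promoter table of GRCm38.p6 (250 bases before to 50 after a gene's start) held H2-Aa, H2-Eb1, H2-DMb1 and H2-DMa, 4 of the 7 genes. The stretches with these boxes are shown for H2-Aa, H2-Eb1 and H2-DMb1, to let the letters of the boxes be compared between class II genes. Of the boxes searched, the Y box core was the only match found in all 4 genes. The capitals mark the X2 box TGACGTCA and the Y box CTGATTGG in H2-Aa (chr17:34287883-34287912 and chr17:34287859-34287882, minus strand), the shorter X box and the Y box in H2-Eb1 (chr17:34305767-34305794 and chr17:34305797-34305820, plus strand), and the X box and the Y box core ATTGG in H2-DMb1 (chr17:34153087-34153114 and chr17:34153120-34153142, plus strand).
H2-Aa X2 box: tgcagctggcaacttTGACGTCAtcacaag
H2-Aa Y box: agaattttCTGATTGGttctggcg
H2-Eb1 shorter X box: ctctaactAGCAACTGATGatgctggac
H2-Eb1 Y box: ctttgatgCTGATTGGctcccagc
H2-DMb1 X box: ggtttaCCTAGTAACTGATGatgctagg
H2-DMb1 Y box core: tcactcagtgATTGGtctgacct

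Searched on both strands, the full X box occurred in H2-DMb1 alone among these genes and in 0.0609% of 32851 promoters. A shorter form of it, chosen after the sequences were seen and contained in the full form, occurred in H2-Eb1 and H2-DMb1 and in 0.968% of promoters. The Y box CTGATTGG was present in H2-Aa, 51 bases before the start, in H2-Eb1, 62 bases before it, and in 4.10% of promoters. Its core ATTGG, which lies within it, is common, at 37.4% of promoters, and the X2 box TGACGTCA, also chosen after the sequences were seen, was in H2-Aa and in 1.79%. The starts of the shorter X box and the Y box core lay 33 bases apart in H2-Eb1 and 34 in H2-DMb1. A pair with starts 30 to 37 bases apart on the sense strand, a window chosen after these distances were seen and which therefore holds H2-Eb1 and H2-DMb1 by construction, was otherwise found in the promoters of the class II gene H2-Eb2 and of Gm31108. In H2-DMa, for which the table holds 2 start sites, the core ATTGG 198 bases before 1 of them was the only match. The promoter of H2-Oa, a gene with at most 53 counts in a sample, also holds the shorter X box and the Y box. Neither the gamma-activated site TTCNNNGAA, in 8.30% of promoters, nor the E box CACGTG, in 7.15%, occurred in the windows of the 4 genes. These matches describe letters in a window and are not a measurement of binding.

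Both peptide-loading genes rose, with log2 differences below those of the classical chains that were not tested against them. H2-DMa (ENSMUSG00000037649, chromosome 17, 34119541 to 34139101, plus strand) and H2-DMb1 (ENSMUSG00000079547, chromosome 17, 34153072 to 34160230, plus strand) encode the chains of the H2-DM pair, which edits the peptides that class II molecules carry. The counts of H2-DMa were 2881, 4188 and 2693 with vector and 5442, 7363 and 7265 with circEZH2_005. It rose from 43.4 ± 11.3 to 89.6 ± 18.4 CPM (SD, n = 3 each), which was a log2 difference of 1.05 ± 0.21 (SE, edgeR adjusted p = 0.0458), close to the threshold. H2-DMa overlaps Brd2, CR974462.4 and Gm20493 on the other strand and CR974462.3 on its own, so its reads could be shared with them.

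H2-DMb1 had counts of 3925, 4960 and 3164 with vector and of 6883, 10475 and 9329 with circEZH2_005. Its level went from 53.7 ± 13.0 to 119 ± 28.7 CPM (SD, n = 3 each), with a log2 difference of 1.15 ± 0.23 (SE, edgeR adjusted p = 0.0426). Every circEZH2_005 sample was above the vector samples, the lowest again being sample 1. Of the distinct stretches of 50 bases in its GENCODE transcripts, 22.7% also occur in its near copy H2-DMb2, so some reads could have been assigned to either gene. Among the other members 0.488% of such stretches in H2-Aa were shared with other genes, and 0 in the remaining 5.

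Cd74 (ENSMUSG00000024610, chromosome 18, 60803848 to 60812646, plus strand), which encodes the invariant chain, had the most counts of the 7 genes, 46323, 59918 and 47881 with vector and 104609, 140974 and 125217 with circEZH2_005. It rose from 685 ± 103 to 1650 ± 301 CPM (SD, n = 3 each), which came to a log2 difference of 1.27 ± 0.17 (SE, edgeR adjusted p = 0.0181), the smallest SE of the 7. Vector samples 1 and 3 were alike and vector sample 2 was higher, though below every circEZH2_005 sample. By FPKM (fragments scaled to transcript length and to library size), Cd74 ranked between 91 and 124 among all genes in vector samples and between 36 and 47 in circEZH2_005 samples, so that the invariant chain was among the more abundant transcripts of every library, the controls included. A microRNA gene, Mir5107, lies within it.

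Ciita (ENSMUSG00000022504, chromosome 16, 10480059 to 10526426, plus strand) encodes the coactivator. It had counts of 3081, 5100 and 2539 with vector and 5512, 8470 and 8114 with circEZH2_005. Vector sample 2 came within 1 CPM of circEZH2_005 sample 1, at 68.3 against 69.3 CPM. The means were 47.8 ± 18.5 and 98.8 ± 25.5 CPM (SD, n = 3 each), with a log2 difference of 1.05 ± 0.29 (SE) and an edgeR adjusted p of 0.0856, above the threshold. Without vector sample 2 it was 1.40 and passed (edgeR adjusted p = 0.0169). Ciita is transcribed from several alternative promoters used by different cell types, which a table of genes does not separate, and it overlaps Dexi on the other strand.

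The levels of the members followed a fixed order per length. In all 6 samples the FPKM fell from Cd74 through H2-Ab1, H2-Eb1, H2-Aa, H2-DMb1 and H2-DMa to Ciita. In vector samples these were 377 ± 60.8 FPKM for Cd74, 86.4 ± 23.2 for H2-Ab1, 69.8 ± 19.1 for H2-Eb1, 56.2 ± 17.1 for H2-Aa, 29.5 ± 7.35 for H2-DMb1, 11.7 ± 3.15 for H2-DMa and 4.64 ± 1.84 for Ciita (SD, n = 3 each). The vector ranges of H2-Ab1 and H2-Eb1 overlapped, as did those of H2-Eb1 and H2-Aa, whereas the other neighbours in the order did not overlap. With circEZH2_005 the FPKM were 851 ± 109, 232 ± 36.4, 166 ± 20.5, 151 ± 26.1, 61.2 ± 11.6, 22.4 ± 3.46 and 8.93 ± 1.87 in the same order, and H2-Eb1 and H2-Aa were the neighbours whose ranges overlapped.

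Relative to Cd74 in the same sample, which removes the scaling of libraries, the differences were small. H2-Ab1 was at between 20.9% and 25.2% of the FPKM of Cd74 in vector samples and between 26.2% and 27.8% in circEZH2_005 samples, a difference in log2 ratio of 0.27, and its groups did not overlap (two-sided exact permutation p = 0.1, adjusted p = 0.4 over the 6 ratios). For the other 5 genes the groups overlapped, with differences in log2 ratio between -0.21 for H2-DMa and 0.28 for H2-Aa and exact permutation p-values between 0.2 and 0.4. Ciita was at between 0.933% and 1.5% of Cd74 with vector and between 0.927% and 1.14% with circEZH2_005. With 3 samples against 3 no ratio could reach a p-value under 0.05.

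Pearson's r of log2 CPM between pairs of the 7 genes was between 0.938 and 0.999 over the 6 samples, which share the groups and the libraries, so that any genes that differ between the groups correlate. By the same measure, 240 of 10672 other genes with a mean of at least 5 CPM had an r over 0.95 with the mean standardised level of the 7 genes. The 10 most alike were Palld, Nr1i2, Vwa5a, Irf8, Plaat3, Pim1, Cpt2, Gm17334, Gm11127 and Grn, with r from 0.9961 down to 0.9912. Of these, Irf8, a transcription factor of the interferon regulatory family, went from 127, 176 and 121 CPM with vector to 247, 339 and 301 CPM with circEZH2_005 (log2 fold change 1.06, edgeR adjusted p = 0.0286). Cpt2 and Nr1i2 differed by only 0.30 and 0.32 on the log2 scale and did not pass the adjustment.

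Among the other class II genes of the H2 region, 1 of 5 was called. H2-DMb2, the near copy of H2-DMb1, had 113, 196 and 134 counts with vector and 348, 480 and 401 with circEZH2_005, a log2 difference of 1.48 ± 0.27 (SE, edgeR adjusted p = 0.0342). H2-Eb2 had 11, 48 and 11 counts against 105, 66 and 78 and did not pass (edgeR adjusted p = 0.133). H2-Oa and H2-Ob, the chains of the H2-DM inhibitor, which is known from B cells and dendritic cells, stayed at or under 53 and 115 counts in every sample and overlapped between the groups. The H2-DM chains had at least 2693 counts in every library, where those of its inhibitor had at most 115.

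Of the endosomal enzymes that process the invariant chain and antigens, none was called. In edgeR 0 of 9 passed the adjustment, 4 had an unadjusted p-value under 0.05, and DESeq2 and limma called 3 and 1, while edgeR called 2 without vector sample 2. The median log2 fold change of the list was 0.14. Ctss, encoding cathepsin S, which makes the last cuts in the invariant chain, had 6868, 7974 and 6979 counts with vector and 10031, 11512 and 9009 with circEZH2_005, without overlap between the groups, and a log2 difference of 0.48 ± 0.11 (SE, edgeR adjusted p = 0.0592). The lowest values were those of Lgmn, encoding the asparagine endopeptidase legumain, at -0.61 ± 0.18 (SE, edgeR adjusted p = 0.1), and of Ifi30, encoding a lysosomal thiol reductase, at -0.32 ± 0.08 (SE, edgeR adjusted p = 0.0756). In both, the CPM of all circEZH2_005 samples lay below those of all vector samples, as in 14.2% of all genes tested. In the higher direction 4 of the 9 genes did not overlap, beside 16.4% of all genes tested.

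The partners of CIITA at class II promoters had small differences. Of Rfx5, Rfxap, Rfxank, Creb1, Nfya, Nfyb and Nfyc, 0 of 7 passed the adjustment in edgeR, with 2 at an unadjusted p-value under 0.05 and 0 called by DESeq2 or limma. Their log2 fold changes lay between -0.37 for Rfxap and 0.30 for Rfx5, with a median of -0.14 and standard errors between 0.09 and 0.14. Levels of Rfx5, which encodes the DNA-binding subunit of the RFX complex, were 15.9, 17.7 and 16.7 CPM with vector and 20.8, 22.1 and 18.9 CPM with circEZH2_005.

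Of 9 genes of interferon-gamma signalling, 1 was called, Irf1, which encodes a factor that binds the interferon-responsive promoter of Ciita. Irf1 had 13004, 20747 and 11780 counts with vector and 28896, 36750 and 31887 with circEZH2_005, a log2 difference of 1.10 ± 0.23 (SE, edgeR adjusted p = 0.0472), and its r with the class II genes was 0.99. The feedback inhibitor Socs1 had 69, 310 and 48 counts against 548, 904 and 553 (edgeR adjusted p = 0.1). Ifng itself, a product of T and natural killer cells, was read at 14, 87 and 8 counts with vector and 386, 297 and 79 with circEZH2_005, where vector sample 2 exceeded circEZH2_005 sample 3 (log2 difference 2.77 ± 0.91, SE, edgeR adjusted p = 0.122). The receptor chains Ifngr1 and Ifngr2 had log2 fold changes of -0.27 and 0.20 that did not pass. In this list 7 of 9 genes had an unadjusted p-value under 0.05, and edgeR called 4 without vector sample 2 and 0 without any other single sample.

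**Figure D2:**
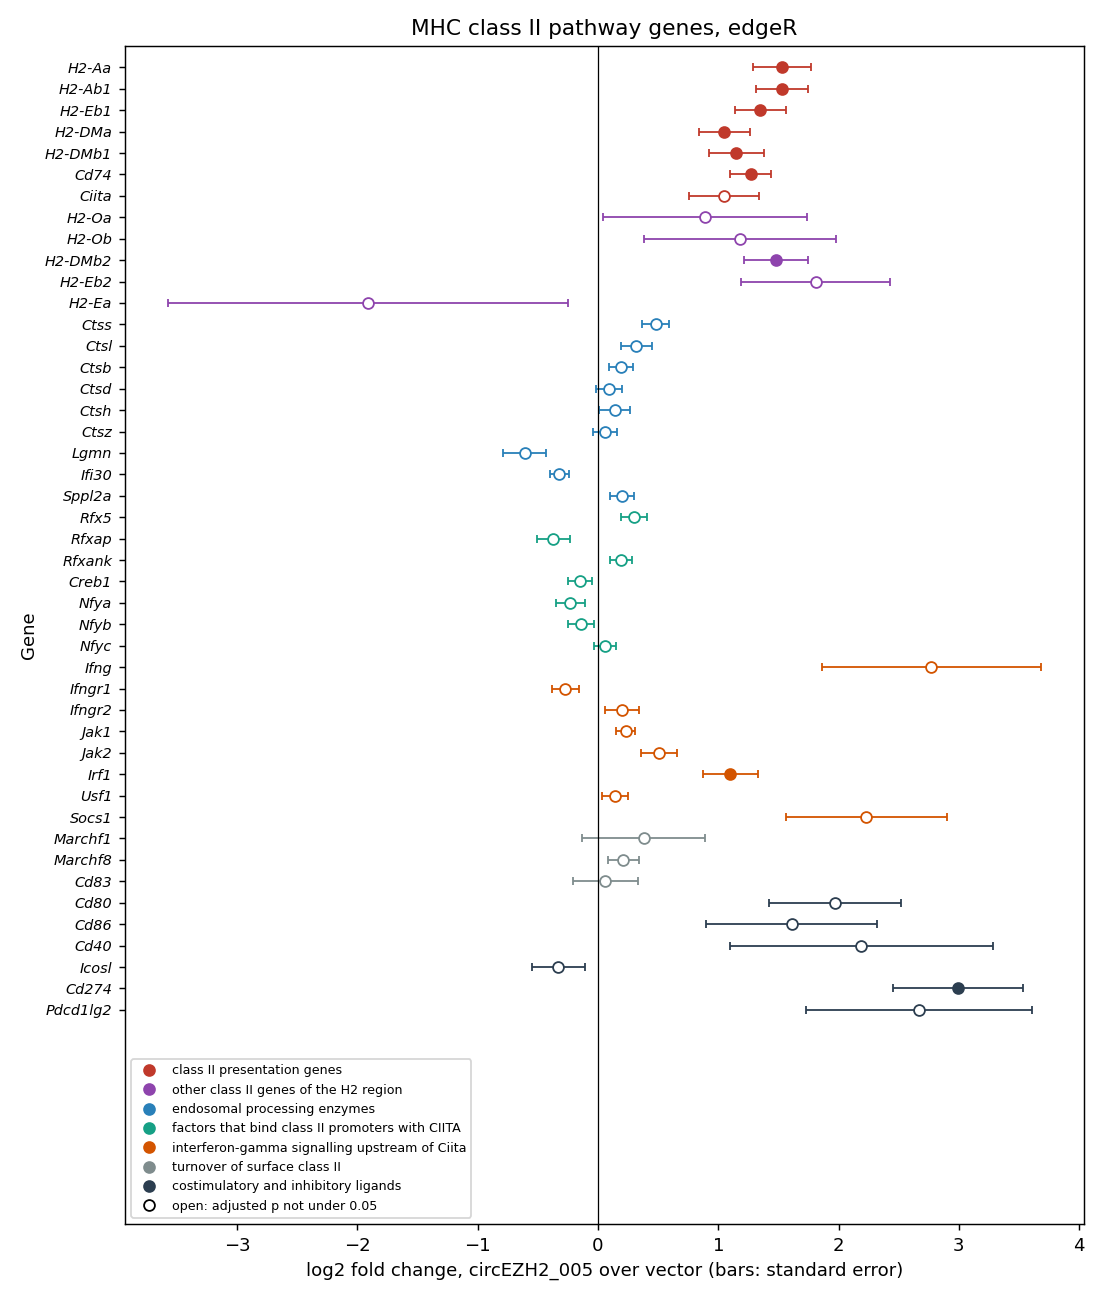
log2 fold change of circEZH2_005 over vector, with its standard error as bars, for the 7 class II genes and other genes of the pathway, coloured by list. Filled points passed an adjusted p-value of 0.05 in edgeR. The class II genes lie between 1.05 and 1.53, the processing enzymes between -0.61 and 0.48, and the factors that bind class II promoters between -0.37 and 0.30.

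Of 6 ligands that act beside class II on T cells, 1 was called. Cd274, which encodes PD-L1, rose from 130, 435 and 149 counts to 1939, 2715 and 1050, a log2 difference of 2.99 ± 0.54 (SE, edgeR adjusted p = 0.0342). The costimulatory Cd80 and Cd86 had at most 21 and 35 counts with vector and at most 72 and 77 with circEZH2_005, and did not pass (edgeR adjusted p = 0.0836 and 0.222). Icosl, with 567, 426 and 801 counts the most abundant ligand of this list by counts in 2 of the 3 vector samples, had the lowest value, a log2 fold change of -0.33 (edgeR adjusted p = 0.419). Of 3 genes for the turnover of surface class II, 0 passed in edgeR, 0 had an unadjusted p-value under 0.05, and 0 were called by DESeq2 or limma. Marchf8, a ubiquitin ligase, was at 115 ± 8.17 and 134 ± 21.5 CPM (SD, n = 3 each), while Marchf1, its relative in antigen-presenting cells, stayed at or under 102 counts, and Cd83 at or under 210.

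Markers of leukocytes, which a culture of sorted epithelial stem cells should lack, were present in every sample. The pan-leukocyte markers Ptprc, Coro1a, Laptm5, Cd53 and Cd52 summed to 45.0, 159 and 62.8 CPM in the vector samples in order and to 380, 285 and 205 CPM with circEZH2_005, so that every circEZH2_005 sum lay above every vector sum. None of the 5 passed the adjustment in edgeR, while 5 had an unadjusted p-value under 0.05, DESeq2 called 3 and limma 0. The 6 T cell markers summed to 31.0, 104 and 33.5 CPM with vector and to 254, 217 and 156 CPM with circEZH2_005, again with 0 calls in edgeR, 6 at an unadjusted p-value under 0.05, 5 by DESeq2 and 0 by limma. Without vector sample 2, edgeR called 5 of 5 and 6 of 6. Vector sample 2 was the highest vector sample in these sums and in the class II genes. Among circEZH2_005 samples the orders differed, since leukocyte and T cell markers were highest in sample 1 and lowest in sample 3, whereas the summed class II genes were lowest in sample 1, at 2860 CPM, and higher in samples 2 and 3, at 4250 and 3960 CPM. The part of leukocyte RNA in the class II values was not tested.

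Markers of the professional antigen-presenting cells were read in all 6 samples. B cell markers summed to between 3.09 and 5.47 CPM with vector and between 4.58 and 19.1 CPM with circEZH2_005, and 0 of 6 were called by edgeR, with 2 at an unadjusted p-value under 0.05, 2 by DESeq2 and 0 by limma, and 1 by edgeR without vector sample 2. Of the 7 dendritic cell markers 5 were tested and 1 was called, Itgax, with 205, 445 and 345 counts against 1724, 1167 and 751 (log2 fold change 1.86, edgeR adjusted p = 0.0362), a gene that intraepithelial T cells also express. Of the 5 tested, 4 had a positive log2 fold change. The groups did not overlap in 3 in the higher direction, beside 16.4% of all genes tested, and in 1 in the lower direction, beside 14.2%. The lower 1 was Zbtb46, a transcription factor of classical dendritic cells, with 104, 52 and 56 counts against 21, 49 and 46. Its log2 difference was -0.86 (SE 0.49, edgeR adjusted p = 0.336). Batf3 and Ccr7 were not tested, with at most 13 and 40 counts in a sample, and Xcr1 and Clec9a had at most 13 and 50, with 0 in vector sample 1. Xcr1 and Clec9a were higher without overlap, with log2 fold changes of 1.29 and 1.95 (edgeR adjusted p = 0.489 and 0.333). The 8 macrophage markers summed to between 44.2 and 52.3 CPM with vector and between 80.4 and 108 CPM with circEZH2_005, and 0 were called by edgeR, with 2 at an unadjusted p-value under 0.05, 1 by DESeq2 and 0 by limma, and 1 by edgeR without vector sample 2 or without circEZH2_005 sample 1. Adgre1, the gene of the macrophage antigen F4/80, had at most 91 counts and Fcgr1 at most 28.

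**Figure D3:**
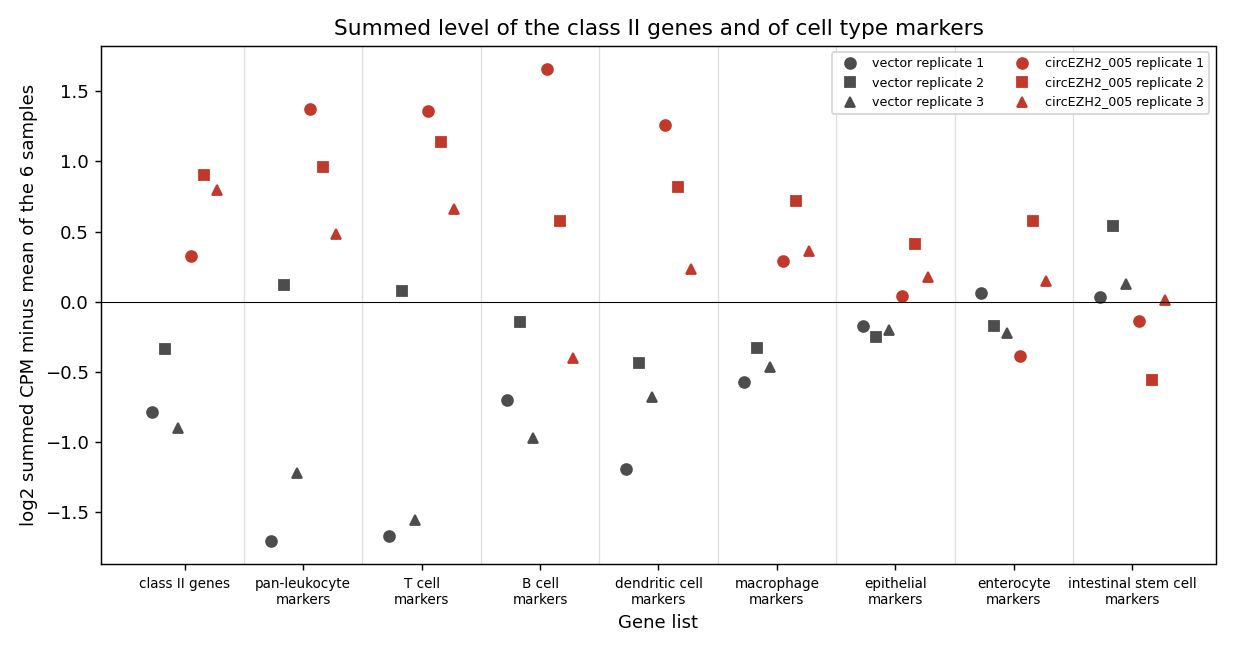
Summed CPM of the 7 class II genes and of each marker list in each sample, as log2 minus the mean of the 6 samples, with vector in grey and circEZH2_005 in red. Class II genes are lowest in sample 1 among the red points, in which the sums of pan-leukocyte, T cell, B cell and dendritic cell markers are highest. Itgax made up 21.7 of the 24.5 CPM of the dendritic cell sum in that sample. Among the other dendritic cell markers, all with few counts, Flt3 and Ccr7 were highest there and Zbtb46 and Clec9a lowest. For the stem cell markers every red point lies below every grey point, narrowly, with the highest red sum at 1930 CPM and the lowest grey sum at 1960 CPM. Most of each sum was Olfm4, whose own groups overlapped, at 1450, 2310 and 1510 CPM with vector and 1380, 1000 and 1570 CPM with circEZH2_005.

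Some markers of the epithelium were called too. Krt8 was the 1 called of 6 epithelial markers, from 2090 ± 7.21 to 3100 ± 259 CPM (SD, n = 3 each), with a log2 fold change of 0.57 (edgeR adjusted p = 0.0301). Vil1 also differed by 0.57 and Epcam by 0.16, and neither passed (edgeR adjusted p = 0.124 and 0.36). In this list 6 of 6 log2 fold changes were positive, and 4 of 6 genes did not overlap in the higher direction, beside 16.4% of all genes tested. An unadjusted p-value under 0.05 was found in 3, and DESeq2 called 2 and limma 1. Of the 5 intestinal stem cell markers 2 were called lower in edgeR, beside 0.986% of all genes tested. The log2 fold change was positive in 0 of the 5, with values between -0.88 and -0.42. In 4 of the 5 all circEZH2_005 samples lay below all vector samples, beside 14.2% of all genes tested. An unadjusted p-value under 0.05 was found in 4, and DESeq2 called 4 and limma 1. Lgr5 fell by 0.88 on the log2 scale (edgeR adjusted p = 0.0434) and Smoc2 fell by 0.81 (edgeR adjusted p = 0.0203). The enterocyte markers differed in sign. Fabp2 and Apoa1 had log2 fold changes of 0.98 and 0.86 (edgeR adjusted p = 0.0622 and 0.0565), Alpi had 0.34, and Fabp1 and Sis had -0.37 and -0.29 (edgeR adjusted p = 0.47 and 0.579). In edgeR 0 of 5 in this list were called, with 3 at an unadjusted p-value under 0.05, 2 by DESeq2 and 0 by limma. Fabp2 had 1830, 3610 and 2850 CPM in circEZH2_005 samples 1 to 3, the same order as the summed class II genes in these samples, but 1550, 1480 and 1190 CPM with vector, where vector sample 2 was not the highest. In this list edgeR called 2 of 5 without circEZH2_005 sample 1. The calls of H2-DMb2, Irf1, Cd274, Itgax, Krt8, Lgr5 and Smoc2 were each kept without vector sample 2 and lost without vector sample 1, vector sample 3 or circEZH2_005 sample 2. Without circEZH2_005 sample 3 Itgax alone of these kept its call, and without circEZH2_005 sample 1 H2-DMb2, Krt8 and Smoc2 kept theirs. Whether the mixture of epithelial cells had a part in the class II values was not tested.

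**Figure D4:**
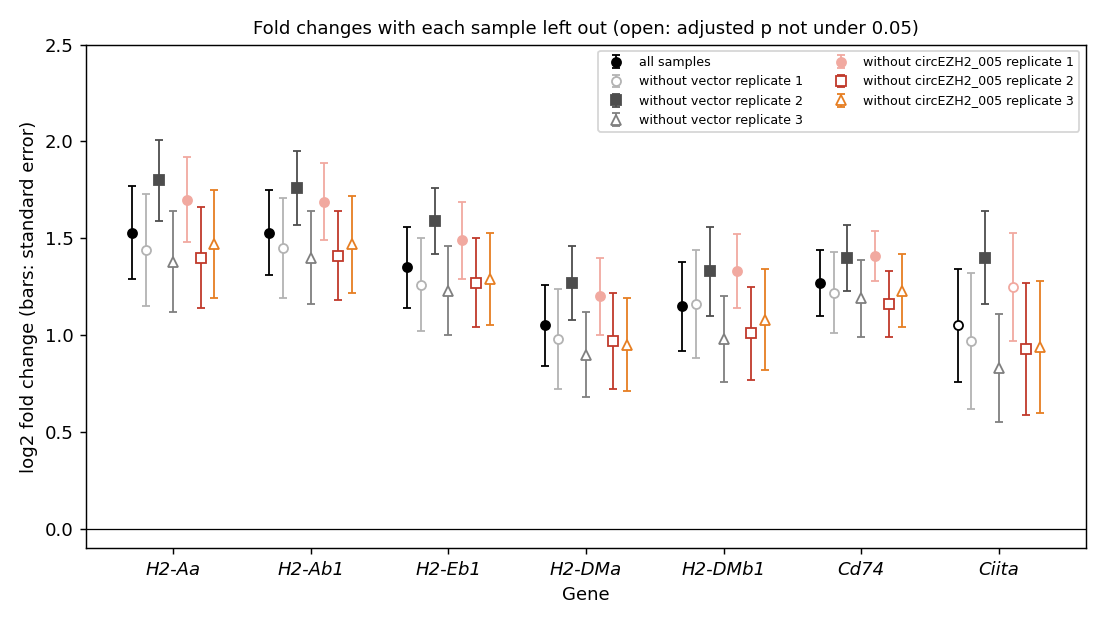
log2 fold change of each class II gene, with its standard error as bars, in the fit of all 6 samples (black) and with each sample left out. Filled points passed an adjusted p-value of 0.05. All values are above 0, from 0.83 for Ciita without vector sample 3 to 1.80 for H2-Aa without vector sample 2, and all points are open when vector sample 1 or 3 or circEZH2_005 sample 2 or 3 is left out.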

How the data were processed

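RNA sequencing of 6 samples was deposited as a table. The authors deposited counts of reads per gene, without normalization, and FPKM values that they computed. The submitters' processing notes name cutadapt 1.9, HISAT2 2.0.4, StringTie 1.3.4d, DESeq2 and the build mm10, without roles; the counter and the annotation are not given in the sources used here. Columns with NC in their names were assigned to vector, because the labels hold no other control group, and the number of unused sample columns was 0. Of 28752 identifiers, 28678 were found in GENCODE M21 (GRCm38) and 28527 had the same start there.

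Genes were filtered with filterByExpr, scaled with TMM and tested in edgeR 4.0.16 (R 4.3.3) by quasi-likelihood, without a covariate, a step also tested on simulated data. Each standard error was obtained as the ratio of the log2 difference to the root of the F statistic, and p-values were adjusted over all 18348 genes tested. Alternatives used DESeq2 1.42.0, limma 3.58.1 on log2(FPKM + 1) or log2(FPKM + 0.1) for genes averaging 0.5 FPKM or more, median-of-ratios scaling, no filter, a replicate block and each sample left out in turn. At the depth of these libraries the spread of 3 samples per group, more than counting error, limits precision except for genes with few counts. The 7 genes and the other lists were chosen with earlier results of these data known. Named were the 7 genes, in the other lists the called genes, otherwise the genes at both ends of the range of differences and defining markers, and the 10 genes most like the 7. A few further genes (H2-Oa, H2-Ob, Ifi30, Ctss, Socs1, Cd80, Cd86, Epcam and others described by their role) were added after their values were seen. Some members of these lists enter the counts and sums and are not reported here by name.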

Additional observations from a re-analysis of the deposited data

How the results depend on the processing

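The log2 fold changes of the 7 class II genes were positive in 84 of 84 combinations of gene and alternative. Of 7 genes, the number with an adjusted p-value under 0.05 was 7 with DESeq2, 6 with median-of-ratios scaling, 5 with limma on log2(FPKM + 1), 4 with limma on log2(FPKM + 0.1), 4 with the replicate block and 2 without the filter on low counts, where more genes were tested. With 1 sample left out in turn it was between 0 and 7. Over all genes, 674 were called, against 2272 with DESeq2, 169 without the filter, 289 with limma on log2(FPKM + 0.1) and 277 with the replicate block, and between 28 and 1432 with 1 sample left out. Limma on log2(FPKM + 1) called 310 higher and 292 lower, beside 493 and 181 in edgeR. The labels do not say whether the replicate numbers pair the samples. Deviations of same-numbered samples from their group means correlated over all genes tested at -0.106, -0.0135 and 0.0204. Those of samples with different numbers correlated at between -0.104 and 0.12. With 3 samples per group these values cannot decide whether the samples were paired. Under the block the standard errors of all 7 genes were smaller, at 0.17 for H2-Aa and 0.23 for Ciita against 0.24 and 0.29 without it. H2-DMa and H2-DMb1 no longer passed under the block. In the other 14 lists, 66 of 168 counts of calls differed by more than 1.5 times, from counts of 0 to 2. The causes were not tested.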
